A study of Mus musculus with 14 samples.

Results

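The genes described here encode the extracellular and membrane parts of Wnt signalling, with a few genes that act inside the cell or respond to the pathway. They were taken from the count table by name: every Wnt, Fzd, Sfrp, Dkk and Rspo gene with a number, plus Lrp5, Lrp6, Axin2, Lef1, Tcf7, Nkd1, Notum and Frzb. The rule found 49 of the 22430 genes in the table. They comprise 19 ligands, 12 receptors, 4 R-spondins, 10 secreted inhibitors and 4 intracellular or target genes. Of these, 32 had enough counts to be tested, so that 17 are described only by their counts.

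RNA was sequenced from the innermost layer (intima) of the thoracic aorta, which carries the endothelium, of mice without apolipoprotein E (Apoe-/-), a background prone to atherosclerosis that all 4 groups share. Progerin is the shortened lamin A of Hutchinson-Gilford progeria syndrome. The wild-type control mice were Apoe-/-Lmna+/+ (4 libraries), and the ubiquitous progerin mice were Apoe-/-LmnaG609G/G609G (3 libraries), whose mutated Lmna yields progerin in all cells that use the gene. The lamin C-only control mice were Apoe-/-LmnaLCS/LCS (4 libraries). These carry an Lmna allele that yields lamin C without lamin A, as do the VSMC progerin mice, Apoe-/-LmnaLCS/LCS SM22Cre (3 libraries). In the latter, Cre recombinase under the SM22α promoter switches the allele to progerin in vascular smooth muscle cells (VSMCs), so the cells that line the vessel are not the labelled site of progerin in that group. Each library is a pool of 12 to 14 mice of 1 genotype, lysed by passing QIAzol through the lumen. The labels give no age. P-values therefore refer to the variation among pools rather than among mice.

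Wnt proteins are secreted lipid-modified ligands that bind Frizzled receptors. Together with the co-receptors Lrp5 and Lrp6 this stabilises beta-catenin, which enters the nucleus and switches on genes with TCF and LEF factors, whereas other Wnt signals act on cell polarity without beta-catenin. R-spondins raise the amount of Frizzled at the cell surface, secreted Frizzled-related proteins (Sfrp1 to Sfrp5, and Frzb, which is Sfrp3) bind Wnts outside the cell, and Dickkopf proteins such as Dkk1 and Dkk2 bind the Lrp co-receptors. In endothelium the pathway is best known from Fzd4, which with Lrp5 carries signals needed for retinal and brain vessels.

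Library totals ran from 27169784 to 35692385 estimated counts. The 12 endothelial markers were present in every group, with sums between 21056 and 25589 CPM (the count of a gene per 1e+06 counts of its library). Lmna read at 113 to 142 CPM in both control groups, 115 to 121 CPM in the ubiquitous progerin pools and 207 to 256 CPM in VSMC progerin, and counts per gene do not separate progerin from lamin A or C. Apoe read at 44.5 to 72.1 CPM over the 14 libraries, so its count per gene does not check the deletion. The share of counts from mitochondrial genes was 3.53% to 5.42% in both control groups, 7.29% to 8.22% in ubiquitous progerin and 11.5% to 12.1% in VSMC progerin. VSMC progerin pool 3 stood apart in its erythroid markers, with a sum of 8556 CPM against at most 586 CPM in the other 13 libraries, and wild-type pool 1 had the fewest genes with counts (14328). Without the former 11 genes were called in VSMC progerin in place of 12, and without the latter 20 in ubiquitous progerin, as with it. In bulk RNA, fewer cells of a type and less RNA per cell cannot be told apart.

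Both forms of progerin went with lower counts of the most abundant Frizzled and of its co-receptors. Fzd4, Fzd5, Fzd7, Fzd8, Lrp5 and Lrp6 were lower than in the matched control in both models, as was the ligand Wnt2b. The call for Wnt2b in ubiquitous progerin was lost under several alternatives. Several secreted regulators and ligands differed between the models. Rspo1, an enhancer of Wnt signalling, was lower in ubiquitous progerin and higher in VSMC progerin. The ligand Wnt9b was called in the same directions. Its fall in ubiquitous progerin rests on 1 count against 37 in wild-type control, and that call was lost under several alternatives. Frzb was higher in ubiquitous progerin alone among the calls, and Dkk2 in VSMC progerin alone. Sfrp4 was also called higher in VSMC progerin alone, but its effects in the 2 models did not differ by edgeR's quasi-likelihood test (-1.11 ± 0.65, adjusted p = 0.19).

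In counts, 20 of the 32 tested genes were called between ubiquitous progerin and wild-type control, 6 higher and 14 lower, by edgeR's quasi-likelihood test at a Benjamini-Hochberg adjusted p under 0.05 over 14269 genes. The same call was made for 54.6% of all genes tested, 26.3% higher and 28.3% lower, so a share of 62.5% of these genes is near the background. Between VSMC progerin and lamin C-only control 12 of 32 were called, 5 higher and 7 lower, against 42.0% of all genes, 19.0% higher and 23.0% lower. Between lamin C-only control and wild-type control 0 of 32 were called, against 0.175% of all genes by the same edgeR test, 0.0911% higher and 0.0841% lower. In that comparison 4 of 32 had an unadjusted p under 0.05 with edgeR, as with DESeq2 and limma-voom, and both of these also called 0. The share of all genes under that unadjusted threshold was not counted, so the 4 cannot be set against a background. The difference between the effects of the 2 progerin models was called for 15 of 32 genes, 7 higher and 8 lower in ubiquitous progerin, against 44.2% of all genes, 22.4% higher and 21.8% lower.

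The median log2 fold change of the 32 genes was -0.39 in ubiquitous progerin and 0.09 in VSMC progerin, where all genes tested had medians of -0.00 and -0.03. The pool ranges of both groups did not overlap for 20 of 32 genes in the ubiquitous comparison (56.4% of all genes), for 15 in the VSMC comparison (45.5%) and for 4 between both controls (4.97%). All 49 genes together took 0.355% ± 0.0123 of counts in wild-type control (SD, n = 4) and 0.309% ± 0.0105 in ubiquitous progerin (SD, n = 3). Their share was 0.354% ± 0.0035 in lamin C-only control (SD, n = 4) and 0.304% ± 0.0101 in VSMC progerin (SD, n = 3).

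**Figure D1:**
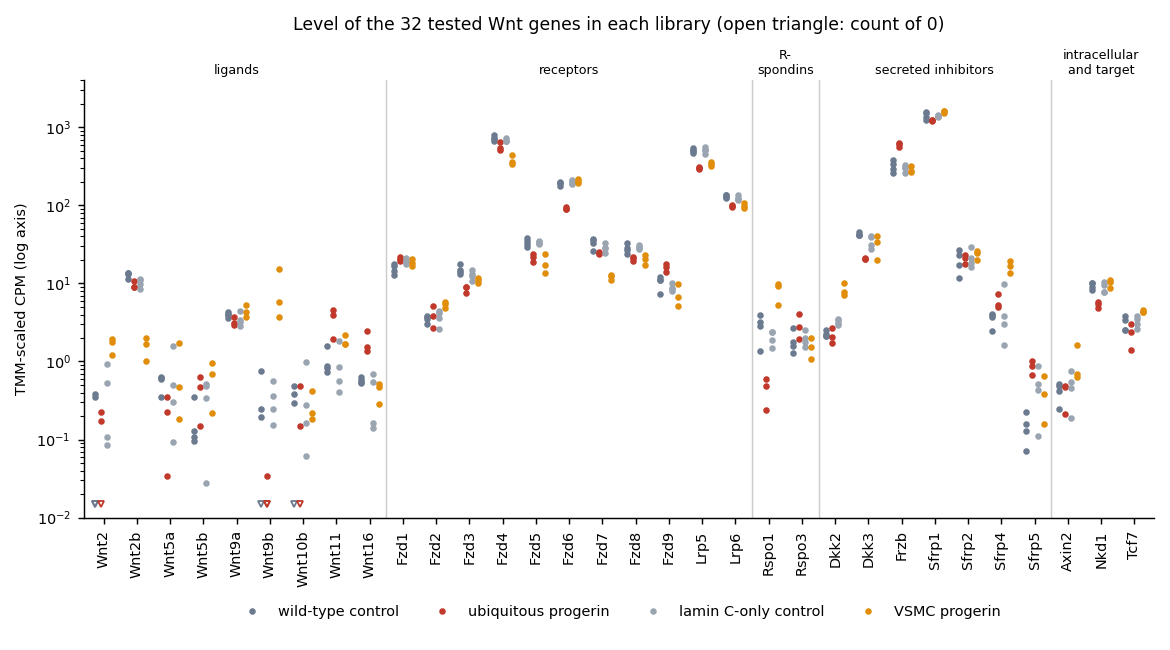
Scaled CPM (log axis) of the 32 tested genes in each of the 14 libraries, ordered by family and coloured by group, with open triangles for counts of 0 (triangles of 1 group coincide). Sfrp1 lies highest at 1193 to 1643 CPM, most ligands lie at or under a few CPM, and Wnt2b and Wnt9b show VSMC progerin points well apart from the others.

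Compared per kilobase (kb) of exon, the scale on which levels of different genes can be set side by side, the inhibitor Sfrp1 had the highest level in wild-type control with 324 CPM per kb. Fzd4 followed with 108 CPM per kb and Frzb with 98.4 CPM per kb, and the pool ranges of these neighbours overlapped. Lrp5 at 52.1 CPM per kb and Fzd6 at 39.7 CPM per kb came next, each apart from its neighbours in range. The highest ligand, Wnt2b, was 14th of the 32 with 3.09 CPM per kb, and from the 16th place (Rspo1) to the 23rd (Rspo3) each range overlapped the next. In ubiquitous progerin Frzb stood above Fzd4, with 187 and 84.7 CPM per kb and ranges that did not overlap. In VSMC progerin the order of the first 4 was Sfrp1, Frzb, Fzd4 and Fzd6, at 367, 89.6, 56.8 and 42.7 CPM per kb, with no overlap between neighbours.

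To show the sequence upstream of genes that moved together, the stretch before the start site is given for 3 genes that rose in VSMC progerin (Wnt9b, Rspo1 and Dkk2) and for Fzd4, the leading receptor, which fell. The sequences are from RefSeq on GRCm38.p6, 5′ to 3′ on the strand of the gene, and end at the base before the first annotated start. Capitals mark each match of GGGCGG (the core of the GC box), of TATAAA (that of the TATA box) or of CTTTGA (a short form of the TCF site) on either strand, where matches may overlap.
Wnt9b, chr11:103749822-103750071, minus strand: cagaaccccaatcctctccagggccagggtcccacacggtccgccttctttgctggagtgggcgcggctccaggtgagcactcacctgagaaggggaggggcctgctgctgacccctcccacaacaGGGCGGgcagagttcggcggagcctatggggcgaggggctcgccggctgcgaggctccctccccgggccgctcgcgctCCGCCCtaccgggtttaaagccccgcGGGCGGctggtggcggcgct
Rspo1, chr4:124986180-124986429, plus strand: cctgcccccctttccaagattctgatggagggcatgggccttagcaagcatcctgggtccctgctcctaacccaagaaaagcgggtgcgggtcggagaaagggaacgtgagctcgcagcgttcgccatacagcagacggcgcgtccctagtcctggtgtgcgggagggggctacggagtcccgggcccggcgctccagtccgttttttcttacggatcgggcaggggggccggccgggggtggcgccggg
Dkk2, chr3:132085042-132085291, plus strand: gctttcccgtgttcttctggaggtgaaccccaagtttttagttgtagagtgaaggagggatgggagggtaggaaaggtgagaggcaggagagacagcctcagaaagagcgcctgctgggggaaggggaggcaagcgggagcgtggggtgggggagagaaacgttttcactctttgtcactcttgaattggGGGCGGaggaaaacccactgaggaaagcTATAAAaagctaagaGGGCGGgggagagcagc
Fzd4, chr7:89404116-89404354, plus strand: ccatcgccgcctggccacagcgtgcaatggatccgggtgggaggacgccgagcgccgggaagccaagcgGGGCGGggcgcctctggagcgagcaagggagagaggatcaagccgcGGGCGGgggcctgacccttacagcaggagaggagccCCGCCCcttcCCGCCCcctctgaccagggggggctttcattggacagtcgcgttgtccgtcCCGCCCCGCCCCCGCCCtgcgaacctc

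The motif GGGCGG occurred 7 times in the Fzd4 stretch, 3 times in that of Wnt9b, 2 times in that of Dkk2 and 0 times in that of Rspo1. TATAAA was found once, in the Dkk2 stretch, and CTTTGA in none of the 4. Over 250 bases upstream, GGGCGG was present in 32.7% of 32851 RefSeq windows and in a window of 24 of the 32 genes described here that have an entry. TATAAA was in 12.4% of all windows and CTTTGA in 13.8%, and each was found for 6 of the 32 genes with an entry. A gene was counted if any of its windows matched, whereas the shares of all windows are per window, so the units are unlike. The median share of G and C was 66.8% in the 39 windows of these genes and 52.4% in all windows. A match is a string of letters and not a shown binding site.

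Among the 19 ligands, 9 were tested, 5 (Wnt3, Wnt3a, Wnt7a, Wnt8a and Wnt10a) had 0 counts in all 14 libraries, and 5 more (Wnt1, Wnt4, Wnt6, Wnt7b and Wnt8b) had between 5 and 44 counts over the 14 libraries. In ubiquitous progerin 2 ligands were higher and 2 lower, where 54.6% of all genes were called, and in VSMC progerin 1 was higher and 1 lower, where 42.0% of all genes were called.

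Wnt2b (chr3:104945272-104961921), a ligand that can act through beta-catenin, was the most abundant ligand in both controls. Its level was 13.8, 11.3, 13.2 and 13.5 CPM in the wild-type pools and 9.003, 9.12 and 10.8 CPM in the ubiquitous progerin pools. It was 11.04, 8.48, 9.95 and 11.3 CPM in the lamin C-only pools and 1.03, 2.00 and 1.65 CPM in the VSMC progerin pools. All VSMC progerin pools lay far below every other pool, while the ubiquitous progerin pools lay just below the lowest wild-type pool. Wnt2b fell by 2.69 ± 0.19 (SE) on the log2 scale in VSMC progerin (adjusted p = 1.1e-09, edgeR's quasi-likelihood test). In ubiquitous progerin it fell by 0.43 ± 0.16 (adjusted p = 0.033), a call lost when limma was run on the values in log2 that were deposited (adjusted p = 0.075), and with any of wild-type pools 1, 3 and 4 or ubiquitous progerin pools 1 and 2 left out (adjusted p = 0.061 to 0.11). The 2 effects differed by 2.26 ± 0.25 (adjusted p = 3.9e-07). Both controls also stood apart in range for Wnt2b, without a call (log2 difference -0.35 ± 0.15, adjusted p = 0.62).

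Wnt9b (chr11:103727364-103749821), a ligand known from kidney and craniofacial development, was close to absent outside VSMC progerin. It was at 0.248, 0.192, 0 and 0.762 CPM in the wild-type pools, 0.0341, 0 and 0 CPM in the ubiquitous progerin pools and 0.363, 0.559, 0.244 and 0.153 CPM in the lamin C-only pools. In the VSMC progerin pools it reached 15.5, 5.78 and 3.75 CPM, each above all 11 other pools. The rise in VSMC progerin was 4.64 ± 0.74 on the log2 scale (adjusted p = 0.00013), and 3.86 (adjusted p = 0.00076) without VSMC progerin pool 1, the highest. In ubiquitous progerin 1 count was found against 37 in wild-type control, a ratio of 0.0387 after scaling for depth, with an exact 95% interval of 0.000955 to 0.230 that covers counting error only. Wnt9b was called lower there (adjusted p = 0.021), although the pool ranges overlap at 0. The call was lost with limma-voom (adjusted p = 0.38) and without wild-type pool 4 or any single ubiquitous progerin pool (adjusted p = 0.051 to 0.078). The fitted difference between the 2 effects, -8.92 ± 1.51 (adjusted p = 0.00018), rests on that single count and is no bound on its size.

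VSMC progerin pool 1 was also the highest of the 14 libraries in the summed mesothelial markers, at 3.67 CPM against at most 0.733 CPM elsewhere. In the other VSMC progerin pools, with 5.78 and 3.75 CPM of Wnt9b, that sum was 0.187 and 0.286 CPM. None of the 6 mesothelial markers had enough counts to be tested, and Wt1 was at 0 in all 14 libraries. The adipocyte (1424 CPM), cardiac muscle (12.6 CPM) and lymphatic endothelial sums (153 CPM) were also highest in VSMC progerin pool 1. The part of any of these cells in the Wnt9b values was not tested.

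Wnt11 (chr7:98835112-98855195) and Wnt16 (chr6:22288227-22298522), ligands known mainly for signals without beta-catenin, were higher in ubiquitous progerin. Wnt11 was at 0.744, 0.865, 1.56 and 0.825 CPM in the wild-type pools and 3.89, 4.60 and 1.96 CPM in the ubiquitous progerin pools. It was at 0.559, 0.404, 0.840 and 1.81 CPM in the lamin C-only pools and 1.65, 2.19 and 1.65 CPM in the VSMC progerin pools. The first pair of groups did not overlap and the second did. The log2 fold change of Wnt11 was 1.79 ± 0.46 in ubiquitous progerin (adjusted p = 0.0025) and 1.02 ± 0.46 in VSMC progerin (adjusted p = 0.084), and the 2 effects did not differ by the test (0.77 ± 0.66, adjusted p = 0.36). In VSMC progerin Wnt11 was called with limma-voom (1.24, adjusted p = 0.046), with limma on the deposited values (1.24, adjusted p = 0.046) and without lamin C-only pool 4 (log2 fold change 1.60, adjusted p = 0.0083).

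Wnt16 was at 0.531, 0.545, 0.586 and 0.635 CPM in wild-type control and 1.36, 2.45 and 1.54 CPM in ubiquitous progerin. All 3 progerin pools were above all 4 control pools, with a log2 fold change of 1.63 ± 0.58 (adjusted p = 0.022) that was not called without ubiquitous progerin pool 2 (1.33, adjusted p = 0.12). The lamin C-only pools of Wnt16, at 0.140, 0.684, 0.163 and 0.552 CPM, overlapped with the VSMC progerin pools, at 0.478, 0.281 and 0.509 CPM (log2 fold change 0.14 ± 0.61, adjusted p = 0.87).

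The other tested ligands, Wnt2, Wnt5a, Wnt5b, Wnt9a and Wnt10b, were called in none of the 4 comparisons. Wnt9a, the only one of these with over 2 CPM in any pool, was at 3.97 ± 0.284 CPM (SD, n = 4) in wild-type control and 3.28 ± 0.424 CPM (SD, n = 3) in ubiquitous progerin. For Wnt2 the VSMC progerin pools, at 1.21 to 1.94 CPM, lay above the lamin C-only pools, at 0.0838 to 0.919 CPM. The log2 fold change of Wnt2 was 2.01 ± 0.97 (adjusted p = 0.10), and it was called with limma-voom (2.62, adjusted p = 0.0075), with the fit of only these groups (2.04, adjusted p = 0.033) and without lamin C-only pool 4 (2.78, adjusted p = 0.047). Wnt5a, a ligand of the branch without beta-catenin, ranged from 0.0341 to 1.72 CPM over the 14 libraries. Its ubiquitous progerin pools, at 0.0341, 0.222 and 0.349 CPM, lay just below the wild-type pools, at 0.352 to 0.635 CPM, without a call (log2 fold change -1.44 ± 0.94, adjusted p = 0.20).

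Of the untested ligands, Wnt4 had 11 counts in ubiquitous progerin, all in pool 2, against 1 in wild-type control. The ratio after scaling was 15.8, with an exact 95% interval of 2.29 to 678. In VSMC progerin Wnt4 had 4, 23 and 1 counts, 28 in all, against 4 in lamin C-only control, a ratio of 10.6 with an interval of 3.71 to 41.6. Wnt7b had 12 counts in VSMC progerin, all in pool 2, against 3 in lamin C-only control, a ratio of 6.07 with an interval of 1.64 to 33.5. For Wnt7b, and for Wnt4 in ubiquitous progerin, a single pool holds all progerin counts, and for Wnt4 in VSMC progerin pool 2 holds 23 of the 28. The intervals cover counting error only and not this spread between pools.

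**Figure D2:**
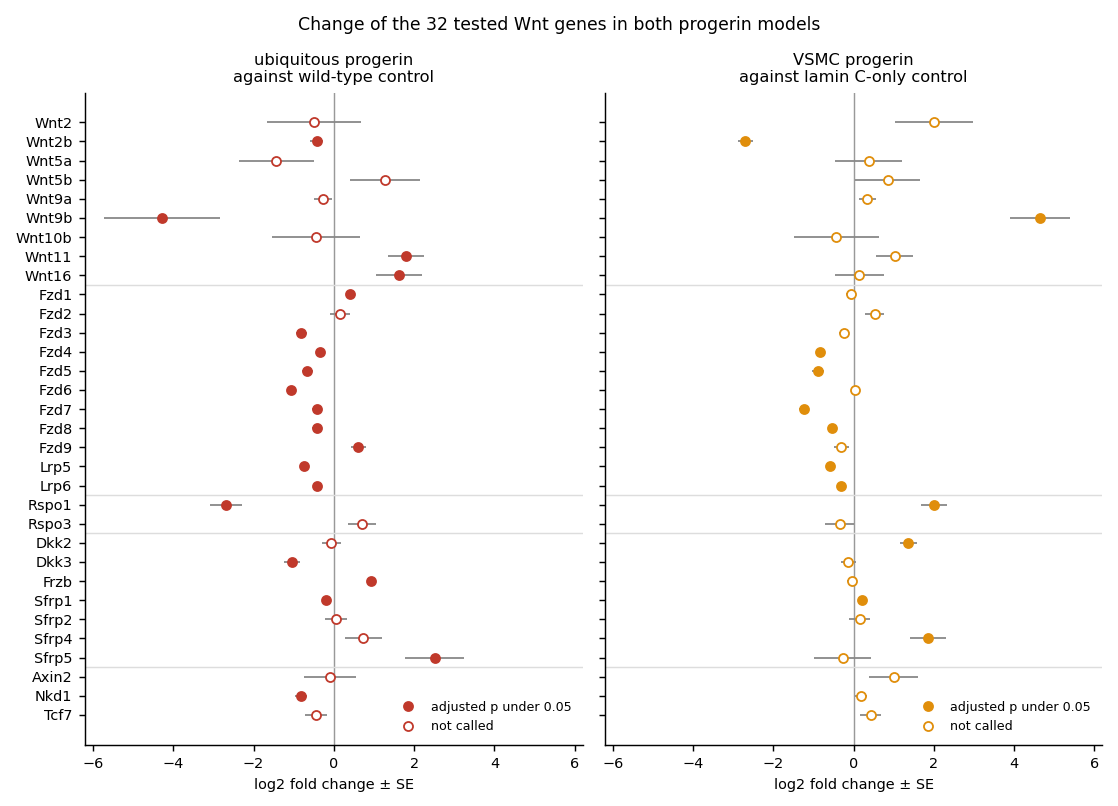
Log2 fold changes (points) with standard errors (bars) of the 32 tested genes, ordered as ligands, receptors, R-spondins, secreted inhibitors and intracellular or target genes, for ubiquitous progerin against wild-type control (left) and VSMC progerin against lamin C-only control (right), filled where called. Among the receptors 8 filled points lie left of 0 and 2 right of it on the left side, and 6 lie left and 0 right on the right side, while Rspo1, Sfrp1 and Wnt9b are filled on opposite sides.

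Of the 12 receptors 11 were tested, and Fzd10 had 3 counts in all. In ubiquitous progerin 8 were lower and 2 higher, where 28.3% of all genes were lower and 26.3% higher. In VSMC progerin 6 were lower and 0 higher, where 23.0% of all genes were lower and 19.0% higher. The 6 that fell in VSMC progerin (Fzd4, Fzd5, Fzd7, Fzd8, Lrp5 and Lrp6) also fell in ubiquitous progerin, where Fzd3 and Fzd6 fell as well. The median log2 fold change of the 11 was -0.42 and -0.32.

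Fzd4 (chr7:89404355-89413134), the receptor of the vascular ligand norrin as well as of Wnts, was the most abundant Frizzled in every pool. Its level was 725, 705, 669.7 and 797 CPM in wild-type control and 544, 642 and 521 CPM in ubiquitous progerin. It was 722, 675, 670.3 and 670.4 CPM in the lamin C-only pools and 338, 361 and 446 CPM in the VSMC progerin pools. Every progerin pool lay below every pool of its control. Fzd4 fell by 0.35 ± 0.09 on the log2 scale in ubiquitous progerin (adjusted p = 0.0026) and fell by 0.84 ± 0.09 in VSMC progerin (adjusted p = 5.2e-07). The difference of 0.49 ± 0.12 between these effects on Fzd4 was called (adjusted p = 0.0032).

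Lrp5 (chr19:3584828-3686564) and Lrp6 (chr6:134446476-134566965) are the co-receptors through which Wnts stabilise beta-catenin. Lrp5 was at 547, 503, 466 and 514 CPM in wild-type control and 308, 295 and 302 CPM in ubiquitous progerin. It was at 555, 519.6, 520.5 and 452 CPM in the lamin C-only pools and 324, 337 and 359 CPM in the VSMC progerin pools. Both progerin groups lay below both control groups in all pools. Lrp5 fell by 0.75 ± 0.07 on the log2 scale in ubiquitous progerin (adjusted p = 1.9e-08) and fell by 0.59 ± 0.07 in VSMC progerin (adjusted p = 9e-07). The difference between the effects, -0.16 ± 0.10 with a 95% interval of -0.35 to 0.03, was not called (adjusted p = 0.18), except with upper quartile scaling (-0.24, adjusted p = 0.044).

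Lrp6 was at 136, 129.7, 125 and 135 CPM in wild-type control and 101, 94.3 and 99.4 CPM in ubiquitous progerin. It was at 137, 118, 125 and 119 CPM in the lamin C-only pools and 107, 92.1 and 99.5 CPM in the VSMC progerin pools. Again no progerin pool reached its controls. The falls of Lrp6 were smaller than those of Lrp5 in value, with log2 fold changes of -0.42 ± 0.07 (adjusted p = 1.7e-05) and -0.32 ± 0.07 (adjusted p = 0.00048).

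Fzd6 (chr15:39006034-39038188), a Frizzled best known from planar polarity, was the second most abundant Frizzled and separated the 2 models. It was at 179, 198, 195 and 192 CPM in wild-type control and 88.9, 96.8 and 89.6 CPM in ubiquitous progerin. It was at 213, 197, 207 and 188 CPM in the lamin C-only pools and 219, 204 and 193 CPM in the VSMC progerin pools. The ubiquitous progerin pools were the lowest of the 14 by a wide gap, whereas the VSMC progerin pools overlapped the lamin C-only pools, with pool 1 the highest of the 14. Fzd6 fell by 1.06 ± 0.06 on the log2 scale in ubiquitous progerin (adjusted p = 5.6e-11), with 0.03 ± 0.06 in VSMC progerin (adjusted p = 0.71). The effects on Fzd6 differed by -1.09 ± 0.09 (adjusted p = 6.2e-09).

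Fzd7 (chr1:59482424-59486955), a Frizzled used by several beta-catenin-activating Wnts, changed the other way round in size. It was at 32.9, 36.8, 35.7 and 25.8 CPM in wild-type control and 23.6, 24.9 and 24.9 CPM in ubiquitous progerin. It was at 28.5, 24.8, 28.9 and 33.0 CPM in the lamin C-only pools and 12.4, 11.1 and 13.01 CPM in the VSMC progerin pools. The ubiquitous progerin pools lay just under the lowest wild-type pool, and the VSMC progerin pools lay far under theirs. The log2 fold change of Fzd7 was -0.42 ± 0.11 in ubiquitous progerin (adjusted p = 0.0039) and -1.25 ± 0.12 in VSMC progerin (adjusted p = 6.7e-08), with a difference of 0.82 ± 0.16 (adjusted p = 0.00036).

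Fzd3 (chr14:65192449-65262463), which acts in axon guidance and planar polarity, was at 14.95, 13.2, 13.9 and 17.5 CPM in wild-type control and 9.003, 8.97 and 7.51 CPM in ubiquitous progerin. It was at 14.9, 12.6, 13.4 and 10.9 CPM in the lamin C-only pools and 11.7, 10.3 and 11.005 CPM in the VSMC progerin pools, where the ranges overlap. Fzd3 fell by 0.81 ± 0.14 on the log2 scale in ubiquitous progerin (adjusted p = 4.2e-05). Its change in VSMC progerin was -0.24 ± 0.13 (adjusted p = 0.16), and the difference between the effects was called (-0.57 ± 0.19, adjusted p = 0.018).

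Among the other receptors, Fzd5 had log2 fold changes of -0.66 ± 0.14 in ubiquitous progerin (adjusted p = 0.00075) and -0.89 ± 0.14 in VSMC progerin (adjusted p = 8e-05). Those of Fzd8 were -0.43 ± 0.11 (adjusted p = 0.0028) and -0.53 ± 0.11 (adjusted p = 0.00064). Fzd5 was at 33.7 CPM and Fzd8 at 28.2 CPM on average in wild-type control, and in both genes no progerin pool overlapped its controls. The difference between the effects was not called for Fzd5 (0.23 ± 0.20, adjusted p = 0.38) or Fzd8 (0.10 ± 0.16, adjusted p = 0.63). For Fzd5 it was called without VSMC progerin pool 3 (0.46, adjusted p = 0.028).

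The 2 receptors that rose in ubiquitous progerin were Fzd1 and Fzd9. Fzd1 was at 13.003 to 17.5 CPM in wild-type control and 19.3 to 21.6 CPM in ubiquitous progerin (log2 fold change 0.41 ± 0.11, adjusted p = 0.0036). The lamin C-only pools, at 18.0 to 21.1 CPM, were also all above the wild-type pools, without a call (0.33 ± 0.10, adjusted p = 0.33). Fzd9 was at 7.32 to 12.2 CPM in wild-type control and 13.8 to 17.7 CPM in ubiquitous progerin (log2 fold change 0.60 ± 0.19, adjusted p = 0.010), a call lost without ubiquitous progerin pool 2 (0.52, adjusted p = 0.055). In VSMC progerin Fzd1 (-0.07 ± 0.11, adjusted p = 0.63) and Fzd9 (-0.31 ± 0.19, adjusted p = 0.22) were not called, although Fzd9 was without VSMC progerin pool 2 (-0.59, adjusted p = 0.023). Both differed between the models, Fzd1 by 0.48 ± 0.16 (adjusted p = 0.016, and 0.055 without ubiquitous progerin pool 1) and Fzd9 by 0.91 ± 0.27 (adjusted p = 0.0098). Fzd2 was called in none of the comparisons, although its VSMC progerin pools, at 4.80 to 5.75 CPM, lay above the lamin C-only pools, at 2.57 to 4.38 CPM (0.52 ± 0.24, adjusted p = 0.082). It was called there with upper quartile scaling (adjusted p = 0.049) and limma-voom (adjusted p = 0.046).

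**Figure D3:**
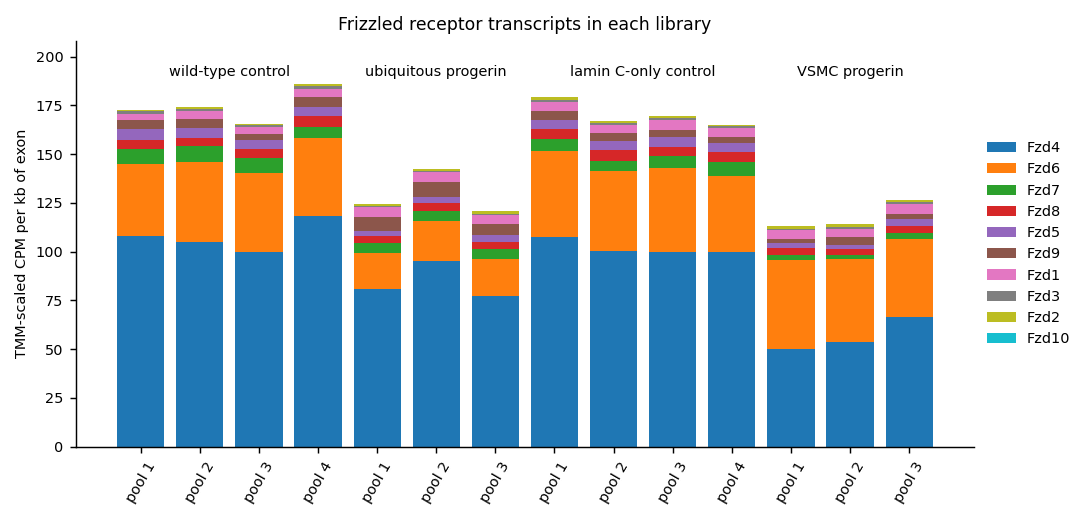
Summed level of the 10 Frizzled genes in each library, in CPM per kb of exon, with 1 coloured part per gene. The bars are lower in both progerin groups than in their controls. The Fzd4 part is shorter in both progerin groups, whereas the Fzd6 part (orange) is shorter in ubiquitous progerin and keeps its height in VSMC progerin.

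Summed over the 10 Frizzled genes, the level was 175 ± 8.36 CPM per kb in wild-type control (SD, n = 4) and 129 ± 11.4 in ubiquitous progerin (SD, n = 3). It was 170.2 ± 6.24 CPM per kb in lamin C-only control (SD, n = 4) and 118 ± 7.44 in VSMC progerin (SD, n = 3). No progerin pool reached the range of its controls. Fzd4 made up 61.7% ± 1.77 of this sum over the wild-type pools and 65.4% ± 1.55 over the ubiquitous progerin pools, against 59.8% ± 0.730 for lamin C-only control and 48.0% ± 4.15 for VSMC progerin (SD, with the same n). Fzd6 made up 22.8% ± 1.51 for wild-type control, 14.8% ± 0.621 for ubiquitous progerin, 24.5% ± 0.697 for lamin C-only control and 36.3% ± 4.29 for VSMC progerin. Fzd9 made up 2.59% ± 0.446 for wild-type control and 5.35% ± 0.330 for ubiquitous progerin, and Fzd1 made up 2.10% ± 0.219 and 3.79% ± 0.352. The mix of Frizzled transcripts therefore moved from Fzd6 toward Fzd4, Fzd9 and Fzd1 in ubiquitous progerin. In VSMC progerin it moved from Fzd4 mainly toward Fzd6, as a description of these pools.

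The endothelial markers that stood beside these receptors did not move as a block. In ubiquitous progerin 3 of 12 were called higher and 6 lower, where 26.3% and 28.3% of all genes were. The sums were 21056 to 22060 CPM against 23665 to 25589 CPM in wild-type control. In VSMC progerin 4 were higher and 6 lower, where 19.0% and 23.0% of all genes were. There the sums were 22024 to 23035 CPM against 22648 to 24691 CPM in lamin C-only control. The macrophage markers were higher in both models, 10 of 10 in each. Their sums were 84.0 to 160.0 CPM over the wild-type pools and 1006 to 1566 CPM over the ubiquitous progerin pools. They were 76.4 to 259.6 CPM in the lamin C-only pools and 738 to 892 CPM in the VSMC progerin pools, with no marker at 0 in any group. The part of macrophage RNA in the receptor values was not tested.

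**Figure D4:**
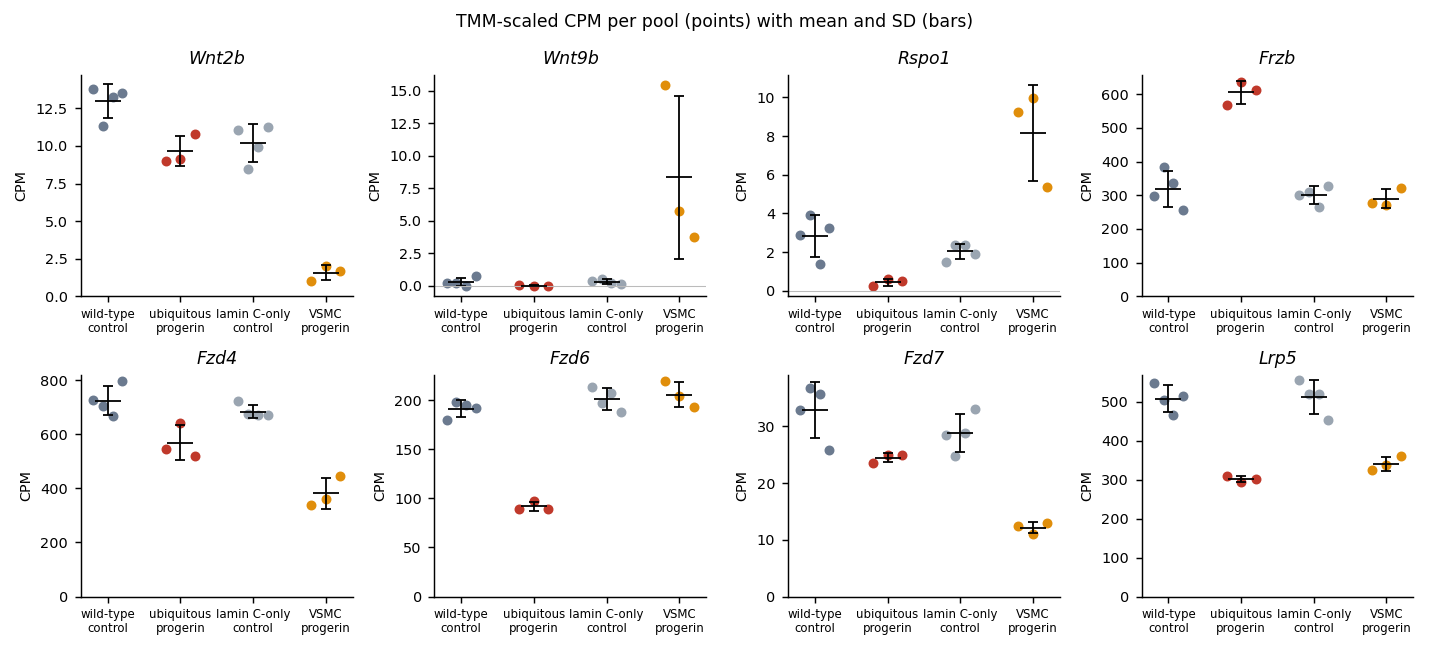
CPM of 8 genes in each pool (points) with the group mean and SD (bars), on linear axes. Wnt2b, Fzd4 and Fzd7 are lowest in VSMC progerin, Fzd6 is lowest and Frzb highest in ubiquitous progerin, Lrp5 is low in both, and Wnt9b and Rspo1 are high in VSMC progerin.

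Of the 4 R-spondins, Rspo1 and Rspo3 were tested. Rspo1 (chr4:124986430-125009099), which amplifies Wnt signals through Lgr receptors, moved in opposite directions in the 2 models. It was at 2.87, 3.94, 1.37 and 3.24 CPM in wild-type control and 0.239, 0.593 and 0.489 CPM in ubiquitous progerin. It was at 1.51, 2.36, 2.36 and 1.90 CPM in the lamin C-only pools and 9.22, 9.96 and 5.34 CPM in the VSMC progerin pools. The groups did not overlap in either comparison, and the ubiquitous progerin pools were the lowest and the VSMC progerin pools the highest of the 14. Rspo1 fell by 2.69 ± 0.40 on the log2 scale in ubiquitous progerin (adjusted p = 1e-05) and rose by 2.01 ± 0.33 in VSMC progerin (adjusted p = 5.4e-05). Between the models the effects on Rspo1 differed by -4.70 ± 0.52 (adjusted p = 4.1e-07).

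Rspo3, an R-spondin known from vessel development, was at 1.08 to 4.05 CPM over the 14 libraries and was called in none of the comparisons. Its log2 fold change in ubiquitous progerin was 0.69 ± 0.35 (adjusted p = 0.10), and 0.93 (adjusted p = 0.036) without wild-type pool 1, where the difference between the models was also called (1.28, adjusted p = 0.043). Rspo2 had 10 counts in VSMC progerin, all in pool 1, and 0 in lamin C-only control. The exact 95% interval of the ratio starts at 3.40, covers counting error only and rests on that pool. Rspo4 had 3 counts in all.

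Markers of cells of the outer vessel wall were measured beside Rspo1. For every list the shares of all genes called were 26.3% higher and 28.3% lower in ubiquitous progerin, and 19.0% higher and 23.0% lower in VSMC progerin. The sum of 10 adventitial fibroblast markers was 1320 to 1386 CPM in wild-type control and 942 to 1107 CPM in ubiquitous progerin. There 1 marker was higher and 3 lower, and the median log2 fold change of the 10 was 0.30, opposite in sign to the change of the sum. The sum was 1357 to 1669.7 CPM in the lamin C-only pools and 2862 to 3583 CPM in the VSMC progerin pools. There 7 were higher and 1 lower, with a median of 1.55. The sum of 7 adipocyte markers was 169 to 766 CPM in the lamin C-only pools and 1105 to 1424 CPM in the VSMC progerin pools, with 5 of 7 called higher. It was 174 to 248 CPM in the wild-type pools and 309 to 582 CPM in the ubiquitous progerin pools, with 0 of 7 called. That of 5 Schwann and neural markers was 13.6 to 18.0 CPM in the lamin C-only pools and 36.5 to 49.4 CPM in the VSMC progerin pools, with 2 of 3 tested called higher. Of 5 erythroid markers 5, and of 5 cardiac muscle markers 3, were also higher in VSMC progerin, while of 10 smooth muscle markers 1 was higher and 4 lower. The erythroid sum was 465, 571 and 8556 CPM in VSMC progerin pools 1, 2 and 3, so only pool 3 stood above the lamin C-only pools, at 312 to 586 CPM. The cardiac sum was 0.644 to 1.68 CPM in the lamin C-only pools and 3.00 to 12.6 CPM in the VSMC progerin pools, and the smooth muscle sum was 675 to 834 CPM and 815 to 894 CPM. No fibroblast, adipocyte or Schwann marker was at 0 in every VSMC progerin pool. The part of these cells in the values of Rspo1, and in those of Wnt9b, Dkk2, Sfrp1 and Sfrp4 that also rose in VSMC progerin, was not tested.

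Of the 10 secreted inhibitors, 7 were tested. In ubiquitous progerin 2 were higher (Frzb and Sfrp5) and 2 lower (Dkk3 and Sfrp1), and in VSMC progerin 3 were higher (Dkk2, Sfrp1 and Sfrp4) and 0 lower. Of all genes 26.3% were higher and 28.3% lower in the former comparison, and 19.0% higher and 23.0% lower in the latter.

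Frzb (chr2:80411970-80447625), a secreted Frizzled-related protein first known from cartilage, was at 297, 383, 337 and 257 CPM in wild-type control and 569, 635 and 613 CPM in ubiquitous progerin. It was at 301, 309, 264 and 328 CPM in the lamin C-only pools and 277, 271 and 322 CPM in the VSMC progerin pools. The 3 ubiquitous progerin pools lay above all 11 others, which overlapped among themselves. Frzb rose by 0.93 ± 0.11 on the log2 scale in ubiquitous progerin (adjusted p = 4.8e-06), against -0.05 ± 0.11 in VSMC progerin (adjusted p = 0.75), and the difference was called (0.98 ± 0.16, adjusted p = 0.00014).

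Sfrp1 (chr8:23411502-23449632), the most abundant of all these genes per kb of exon, changed little. It was at 1522, 1241, 1558 and 1355 CPM in wild-type control and 1193, 1259 and 1259.7 CPM in ubiquitous progerin. It was at 1372, 1399.8, 1390.0 and 1429 CPM in the lamin C-only pools and 1531, 1639 and 1643 CPM in the VSMC progerin pools. The former ranges overlap through wild-type pool 2, and the latter do not overlap. The log2 fold change of Sfrp1 was -0.20 ± 0.07 in ubiquitous progerin (adjusted p = 0.016) and 0.20 ± 0.07 in VSMC progerin (adjusted p = 0.019), with a difference of -0.40 ± 0.09 (adjusted p = 0.0016). Its call in ubiquitous progerin was lost with limma on the deposited values (adjusted p = 0.056), and when either wild-type pool 3 or ubiquitous progerin pool 1 was left out (adjusted p = 0.061 and 0.082). That in VSMC progerin was lost without VSMC progerin pool 2 or 3 (adjusted p = 0.070 and 0.067).

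Dkk2 (chr3:132085292-132180304), a Dickkopf ligand of Lrp5 and Lrp6, was at 2.13, 2.53, 2.15 and 2.22 CPM in wild-type control and 2.05, 1.71 and 2.72 CPM in ubiquitous progerin. It was at 3.46, 3.08, 2.90 and 3.43 CPM in the lamin C-only pools and 10.2, 7.03 and 7.76 CPM in the VSMC progerin pools. The VSMC progerin pools were the highest, and every lamin C-only pool was above every wild-type pool, without a call (log2 difference 0.51 ± 0.21, adjusted p = 0.59). Dkk2 rose by 1.37 ± 0.22 in VSMC progerin (adjusted p = 3.4e-05) and had -0.06 ± 0.23 in ubiquitous progerin (adjusted p = 0.84). Between the models the effects on Dkk2 differed by -1.43 ± 0.32 (adjusted p = 0.00098).

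Dkk3 (chr7:112116017-112159057), a relative of the Dickkopf proteins that does not act on Lrp in the way of Dkk1, was at 41.7, 41.9, 41.4 and 46.1 CPM in wild-type control and 20.6, 21.5 and 20.3 CPM in ubiquitous progerin. It was at 27.4, 31.4, 40.6 and 39.2 CPM in the lamin C-only pools and 20.2, 33.6 and 40.7 CPM in the VSMC progerin pools. The former groups lay far apart, whereas the lamin C-only and VSMC progerin pools overlapped, with VSMC progerin pool 1 the lowest of the 14. Every lamin C-only pool also lay below every wild-type pool, without a call (log2 difference -0.30 ± 0.17, adjusted p = 0.77). Dkk3 fell by 1.04 ± 0.20 on the log2 scale in ubiquitous progerin (adjusted p = 0.00055), with -0.13 ± 0.19 in VSMC progerin (adjusted p = 0.61) and a difference of -0.91 ± 0.27 (adjusted p = 0.015).

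Sfrp4 (chr13:19623104-19632994), a Frizzled-related protein known from bone and fat, was at 4.00, 2.43, 3.94 and 3.75 CPM in wild-type control and 5.35, 7.30 and 4.99 CPM in ubiquitous progerin. It was at 3.86, 1.62, 3.04 and 9.90 CPM in the lamin C-only pools and 16.7, 13.4 and 19.5 CPM in the VSMC progerin pools. Both progerin groups lay above their controls. Sfrp4 rose by 1.85 ± 0.45 on the log2 scale in VSMC progerin (adjusted p = 0.0057), and by 2.54 (adjusted p = 5.3e-07) without lamin C-only pool 4. With only the 2 groups in the fit the call was lost (1.88, adjusted p = 0.057). Lamin C-only pool 4 was also the highest of its group in the sums of adipocyte (766 CPM) and adventitial fibroblast markers (1669.7 CPM). The same held for Schwann and neural markers (18.0 CPM) and lymphatic endothelial markers (89.2 CPM). The part of such cells in the Sfrp4 value of that pool was not tested. In ubiquitous progerin the change of Sfrp4 was 0.74 ± 0.47 (adjusted p = 0.21), and it was called with only those groups in the fit (adjusted p = 0.015). The difference between the effects on Sfrp4 (-1.11 ± 0.65, adjusted p = 0.19) was called with limma-voom (-1.40, adjusted p = 0.032) and without lamin C-only pool 4 (-1.80).

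Sfrp5, a Frizzled-related protein known from fat tissue, was low throughout. It was at 0.0709, 0.160, 0.228 and 0.127 CPM in wild-type control and 1.02, 0.667 and 0.873 CPM in ubiquitous progerin, ranges that do not overlap. Sfrp5 rose by 2.51 ± 0.74 on the log2 scale (adjusted p = 0.0074). The lamin C-only pools spread from 0.112 to 0.870 CPM and the VSMC progerin pools from 0.156 to 0.661 CPM (adjusted p = 0.79). Sfrp2 was at 11.8 to 29.6 CPM over the 14 libraries and was called in none of the comparisons. Of the untested inhibitors, Dkk1, the best-known Dickkopf inhibitor, had 46 counts over the 14 libraries, Notum, an enzyme that strips the lipid from Wnts, had 5, and Dkk4 had 2.

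**Figure D5:**
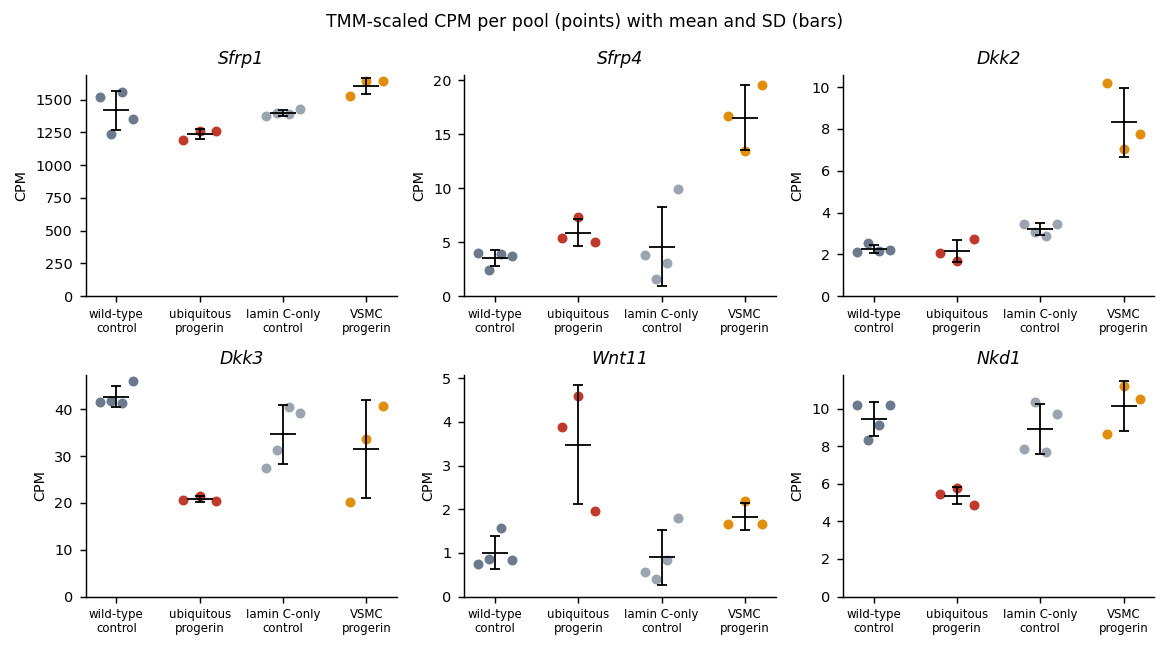
CPM of 4 secreted inhibitors, the ligand Wnt11 and Nkd1 in each pool (points) with the group mean and SD (bars), on linear axes. Dkk2 and Sfrp4 are highest in VSMC progerin, Dkk3 and Nkd1 lowest and Wnt11 highest in ubiquitous progerin, and Sfrp1 shows small shifts beside the spread of its wild-type pools.

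Axin2, Nkd1, Tcf7 and Lef1 act inside the cell, and Axin2 and Nkd1 are widely used as readouts because beta-catenin raises their transcription. Nkd1 (chr8:88521354-88594884), a feedback inhibitor that binds Dishevelled, was at 10.2, 8.33, 9.11 and 10.2 CPM in wild-type control and 5.46, 5.75 and 4.89 CPM in ubiquitous progerin. It was at 7.82, 10.3, 7.70 and 9.68 CPM in the lamin C-only pools and 8.63, 11.2 and 10.5 CPM in the VSMC progerin pools. All ubiquitous progerin pools were below all other pools, and VSMC progerin overlapped its control. Nkd1 fell by 0.82 ± 0.16 on the log2 scale in ubiquitous progerin (adjusted p = 0.00017), with 0.19 ± 0.15 in VSMC progerin (adjusted p = 0.33) and a difference of -1.01 ± 0.22 (adjusted p = 0.00073).

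Axin2, a scaffold of the complex that degrades beta-catenin, had 238 counts over the 14 libraries and was not called in any comparison. It was at 0.248, 0.481, 0.521 and 0.413 CPM in wild-type control and 0.477, 0.482 and 0.209 CPM in ubiquitous progerin (log2 fold change -0.10 ± 0.66, adjusted p = 0.92). It was at 0.754, 0.186, 0.542 and 0.460 CPM in the lamin C-only pools and 1.62, 0.687 and 0.636 CPM in the VSMC progerin pools. The latter ranges overlap, and the log2 fold change of Axin2 there, 1.00 ± 0.62 (adjusted p = 0.21), was 0.46 without VSMC progerin pool 1. At this depth the 95% interval of that change runs from -0.22 to 2.21. Tcf7, a TCF factor abundant in T cells, was at 1.40 to 4.55 CPM over the 14 libraries and was not called, although its VSMC progerin pools lay above the lamin C-only pools (0.42 ± 0.26, adjusted p = 0.21). Tcf7 had a difference between the effects of -0.88 ± 0.38 (adjusted p = 0.065) that was called with DESeq2 (adjusted p = 0.046), upper quartile scaling, limma-voom and limma on the deposited log2 values, and without ubiquitous progerin pool 2 (-1.14, adjusted p = 0.027). Lef1 had 87 counts in all and was not tested.

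Set side by side, 7 genes were lower in both models, 3 were lower in ubiquitous progerin and higher in VSMC progerin, and 0 were higher in both. Of all 14269 genes, 8.63%, 4.27% and 7.89% fell into these classes. A further 6 were called higher and 4 lower in ubiquitous progerin only (12.0% and 15.4% of all genes), 2 were called higher and 0 lower in VSMC progerin only (6.80% and 8.0%), and 10 were called in neither (30.6%). A call in 1 model does not by itself show a difference between them. By the test of the difference, Dkk2, Dkk3, Frzb, Fzd1, Fzd3, Fzd6, Fzd9, Nkd1 and Sfrp5 differed among the genes called in 1 model, whereas Sfrp4, Wnt11 and Wnt16 did not pass. Of the 7 genes lower in both, Wnt2b, Fzd4 and Fzd7 fell further in VSMC progerin. Wnt2b lost its call in ubiquitous progerin under several alternatives. The call for Sfrp5 (2.78 ± 1.04, adjusted p = 0.035) was lost in 11 of the alternatives, 9 of them with 1 pool left out (adjusted p = 0.052 to 0.087).

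Other genes of the pathway were grouped into 6 lists by role, and 0 genes of any list were called between both controls. For every list the shares of all genes called were 26.3% higher and 28.3% lower in ubiquitous progerin, and 19.0% higher and 23.0% lower in VSMC progerin. Of 15 tested genes for Wnt release and membrane partners, 5 were higher and 4 lower in ubiquitous progerin and 2 higher and 7 lower in VSMC progerin. Tspan12, a tetraspanin that helps Fzd4 to respond to norrin, fell in ubiquitous progerin from 34.5 to 21.7 CPM (log2 fold change -0.67 ± 0.10, adjusted p = 6.3e-06) and rose in VSMC progerin from 37.0 to 53.0 CPM (0.52 ± 0.09, adjusted p = 0.00012). Reck, which holds Wnt7 ligands for their receptor, fell in both (-0.63 ± 0.06 with an adjusted p of 4.5e-08, and -0.40 ± 0.06 with an adjusted p of 3e-05). Znrf3, a ligase that removes Frizzled from the surface and is the target of R-spondins, rose in ubiquitous progerin (1.01 ± 0.22, adjusted p = 0.00072).

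Of 8 tested secreted antagonists and modulators outside the rule, 1 was higher and 3 lower in ubiquitous progerin, and 5 were higher and 2 lower in VSMC progerin. Igfbp4, a growth factor binding protein that also binds Frizzled and Lrp6, rose from 218 to 1802 CPM in ubiquitous progerin and from 262 to 769 CPM in VSMC progerin (log2 fold changes 3.05 ± 0.13 with an adjusted p of 4.8e-10, and 1.55 ± 0.13 with an adjusted p of 4.8e-07). Sost, the Lrp antagonist sclerostin, fell by 1.15 ± 0.25 (adjusted p = 0.0017) and fell by 2.09 ± 0.26 (adjusted p = 3.4e-05). Sulf1, a sulfatase that edits heparan sulfate, fell in ubiquitous progerin (-0.76 ± 0.05, adjusted p = 6.1e-10) and rose in VSMC progerin (0.54 ± 0.05, adjusted p = 9.7e-08).

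Of 22 genes of the destruction complex and cytoplasmic transducers, 5 were higher and 5 lower in ubiquitous progerin and 2 higher and 8 lower in VSMC progerin. Ctnnb1, which encodes beta-catenin, fell from 1145 to 739 CPM in ubiquitous progerin (-0.63 ± 0.05, adjusted p = 5.5e-09) and rose from 1163 to 1356 CPM in VSMC progerin (0.22 ± 0.05, adjusted p = 0.0020). Of 17 TCF partners and nuclear cofactors, 3 were higher and 9 lower, and 1 higher and 6 lower. The co-repressor gene Tle1 rose in ubiquitous progerin (1.15 ± 0.08, adjusted p = 4e-10) and fell in VSMC progerin (-0.69 ± 0.08, adjusted p = 1.4e-06), while Tle2 fell in both (-1.27 ± 0.08 with an adjusted p of 2e-10, and -0.54 ± 0.08 with an adjusted p of 1.9e-05).

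Of 17 planar polarity genes, 3 were higher and 9 lower in ubiquitous progerin (26.3% and 28.3% of all genes) and 4 higher and 5 lower in VSMC progerin (19.0% and 23.0%). Daam2, a formin of this branch, rose in ubiquitous progerin (1.49 ± 0.16, adjusted p = 1.4e-07) and fell in VSMC progerin (-0.66 ± 0.17, adjusted p = 0.0044). Prickle2, a core planar polarity gene, fell from 39.8 to 20.04 CPM in ubiquitous progerin (-0.99 ± 0.11, adjusted p = 3.4e-07) and rose from 38.8 to 83.9 CPM in VSMC progerin (1.11 ± 0.10, adjusted p = 5.8e-08). Of 15 genes often used as beta-catenin targets, 4 were higher and 6 lower in ubiquitous progerin and 4 higher and 8 lower in VSMC progerin. Twist1, a transcription factor of mesenchymal cells, fell in both (-1.60 ± 0.08 with an adjusted p of 7.9e-12, and -1.65 ± 0.08 with an adjusted p of 6.6e-12), as did Jun (-1.18 ± 0.07 with an adjusted p of 6.5e-11, and -0.94 ± 0.07 with an adjusted p of 2.5e-09). Ccnd1, the cell-cycle gene for cyclin D1, fell in ubiquitous progerin (-1.52 ± 0.10, adjusted p = 2.6e-10). Slc2a1, a glucose transporter, rose there from 28.6 to 76.1 CPM (1.41 ± 0.08, adjusted p = 3.8e-11), and Cd44, a receptor for hyaluronan, rose in VSMC progerin from 10.04 to 26.3 CPM (1.39 ± 0.15, adjusted p = 3.5e-07). These targets also respond to other pathways, and their counts are not a measure of beta-catenin activity.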

How the data were processed

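The files deposited hold RSEM's estimated counts for each gene, with fractions of a read, and log2 values from limma voom for 13034 genes. Per the submitters' processing notes, limma, RSEM 1.2.28, STAR 2.7.10b, cutadapt 4.1 and Trim Galore 0.6.10 were used, with the GRCm38 build. Filters, strand setting and annotation release: not given in the sources used here. Exons of Axin2, Fzd5, Fzd6, Rspo3, Sfrp2, Wnt5a and Wnt11 overlap those of another annotated gene, and reads there may be divided between the genes by a model. Libraries came from 100 ng of total RNA after poly(A) selection with a directional kit, per the labels' protocols.

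Estimated counts were rounded and filtered with filterByExpr (minimum count 10, minimum total 15, share 0.7), which left 14269 genes. They were scaled with TMM, a trimmed mean of log ratios, and put through the quasi-likelihood test of edgeR 4.0.16 (R 4.3.3), in 1 fit of the 14 libraries with a mean per group. P-values were adjusted by Benjamini-Hochberg over all genes tested, and a gene was called under 0.05 with no fold minimum. The size of a log2 fold change over the root of its F gave the standard error. Both progerin comparisons have their own control libraries, whereas the comparison of both controls shares libraries with each. Levels are CPM after scaling. Positions and exon lengths are from GENCODE M21 on GRCm38, which matched all 49 genes, and span the whole gene. Upstream sequences are from RefSeq on GRCm38.p6, where 32 of the 49 genes had an entry.

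The genes, the marker lists and the pathway lists were chosen with earlier results of these data known. Values in every library were given for genes with a mean of at least 1 CPM in 1 group and a call in at least 1 comparison, at most 6 per family by the smallest p, and for Axin2 and Sfrp5, chosen after their values were seen. From each pathway list up to 4 called genes per progerin comparison qualified, of which fewer are named. Alternatives were DESeq2 1.42.0, limma-voom (limma 3.58.1), limma on the deposited log2 values, other scalings and filters, a fit of only the groups compared, a replicate block, and each library left out. The count of receptors called lower was added after seeing the data. The steps were tested on simulated counts in which 200 genes were changed, in the ubiquitous progerin group only. Far more genes were called in both progerin comparisons, so that test does not cover changes as broad as these. No pair of replicates agreed within counting noise (lowest chi-square per degree of freedom 9.56).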

Additional observations from a re-analysis of the deposited data

Results flagged for a closer look

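The effects of the 2 progerin models differed by edgeR's test for 15 of the genes. The log2 effect was higher in ubiquitous progerin for Sfrp5 (2.78), Wnt2b (2.26), Frzb (0.98), Fzd9 (0.91), Fzd7 (0.82), Fzd4 (0.49) and Fzd1 (0.48). It was lower there for Wnt9b (-8.92, from a group with 1 count), Rspo1 (-4.70), Dkk2 (-1.43), Fzd6 (-1.09), Nkd1 (-1.01), Dkk3 (-0.91), Fzd3 (-0.57) and Sfrp1 (-0.40). For Rspo1, Sfrp1 and Wnt9b the effects were called in opposite directions.

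In 6 of the 64 sets of 4 control pools, 1 per gene and control group, a pool lay far from the other 3 in Dixon's test, where chance gives about 1 in 20. In wild-type control these were Dkk3 in pool 4 (46.1 CPM, the others 41.4 to 41.9), Sfrp4 in pool 2 (2.43 CPM, the others 3.75 to 4.00), Wnt11 in pool 3 (1.56 CPM, the others 0.744 to 0.865), Wnt5a in pool 2 (0.352 CPM, the others 0.602 to 0.635) and Wnt5b in pool 4 (0.349 CPM, the others 0.0961 to 0.130). In lamin C-only control it was Fzd4 in pool 1 (722 CPM, the others 670.3 to 675).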

How the results depend on the processing

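The number of genes called was 20 between ubiquitous progerin and wild-type control, 16 to 20 with each pool left out and 17 to 20 under the other alternatives. For VSMC progerin it was 12, with 11 to 14 and 12 to 15, and for the difference between the effects 15, with 13 to 16 and 14 to 17. Between both controls it was 0 under every alternative run. The count of receptors called lower was 8 in ubiquitous progerin under all alternatives run, and 6 in VSMC progerin, with 7 when VSMC progerin pool 2 was left out. With the pool number as a block the counts were 20, 13, 0 and 14. It ended the calls of Wnt2b in ubiquitous progerin (-0.40, adjusted p = 0.071) and of Sfrp5 for the difference between the effects (2.76, adjusted p = 0.065), and it added Sfrp4 in ubiquitous progerin (1.03, adjusted p = 0.03) and Wnt2 in VSMC progerin (3.36, adjusted p = 0.0076). The labels give the pools numbers but no shared origin, and pools of the same number did not deviate together (correlations of -0.046 to 0.023), so the block is no pairing of animals. Of 47 calls for single genes, 9 were lost under at least 1 alternative, 12 uncalled results gained a call, and 0 called estimates changed sign. Uncalled estimates that changed sign and stayed uncalled numbered 75. The fit of only the groups compared was not run for the difference between the effects, which needs all 4 groups. Depth left 17 of the 49 genes untested, 10 of them ligands.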
